A study of Mus musculus with 8 samples.

Results

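The cyclin-dependent kinase (CDK) inhibitors of the Cip/Kip and INK4 families were followed in LLC1 cells, a line derived from a C57BL/6 mouse lung cancer (Lewis lung carcinoma), 4 h after X-rays. The members were taken by gene symbol as every probe annotated to Cdkn1a, Cdkn1b, Cdkn1c, Cdkn2a, Cdkn2b, Cdkn2c or Cdkn2d, which gave 10 probes of 41174, covering 37 spots on each array. Irradiated cells received a single dose of 2 Gy (2Gy, 3 arrays), a single dose of 10 Gy (10Gy, 2 arrays, the third not analysed here) or 5 fractions of 2 Gy, 10 Gy in total (5x2Gy, 3 arrays). All were set against untreated LLC1 cells, and the labels call the samples of a regimen biological replicates. On every array the irradiated RNA carried Cy5 and the untreated RNA Cy3, without a dye swap, so an effect of the dye cannot be told apart from an effect of radiation in any comparison with untreated cells, whereas a dye effect common to all arrays cancels between regimens. The interval between the fractions is not given in the sources used here.

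CDK inhibitors bind CDKs or CDK-cyclin complexes and restrain the phosphorylation of the retinoblastoma family of pocket proteins, which hold E2F transcription factors in check. The Cip/Kip members p21 (Cdkn1a), p27 (Cdkn1b) and p57 (Cdkn1c) act on cyclin E-, A- and D-bound kinases. The INK4 members p16 (from Cdkn2a), p15 (Cdkn2b), p18 (Cdkn2c) and p19 (Cdkn2d) bind CDK4 and CDK6. After DNA damage p53 activates Cdkn1a directly, and p21 then holds cells before S phase and mitosis; p27 is controlled largely through its degradation.

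Per the image names in the file headers, 10Gy replicate 1 shared slide 1 with all 2Gy arrays, whereas 10Gy replicate 2 shared slide 2 with all 5x2Gy arrays. The irradiated channel was above the negative controls at 41.6% to 47.5% of all probes per array on slide 1 and 34.7% to 37.1% on slide 2. The untreated channel was above them at 44.8% to 49.1%, and there the slides overlapped. In log2 ratios of all genes, 10Gy replicate 2 correlated at 0.748 to 0.854 with the 5x2Gy arrays and at 0.427 with 10Gy replicate 1. Correlations of 10Gy replicate 1 with the 2Gy arrays were 0.39 to 0.511, and those of 10Gy replicate 2 with the 2Gy arrays were 0.463 to 0.562. The log2 ratios of all genes spread most on 10Gy replicate 1 (SD 0.69), against 0.33 to 0.46 on the other 7 arrays. In the untreated channel the keratins Krt8, Krt18 and Krt19 and the mesenchymal genes Vim, Fn1 and Cdh2 were above background on all 8 arrays. The epithelial markers Epcam and Cdh1, the lung factor Nkx2-1, the leukocyte marker Ptprc and the endothelial marker Pecam1 were above background on none, while the leukocyte genes Cd68 and Cd3e were above it on all 8. Among the lung epithelial genes Scgb1a1 was above background on 5 arrays, Sftpc on 1 and Napsa on 0, and the endothelial gene Cdh5 was above it on 3. The fibroblast genes Col1a1 and Pdgfra were above background on 7 and 3 arrays.

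Of the 7 genes, 4 gave a signal that could be compared: Cdkn1a, Cdkn1b, Cdkn2c and Cdkn2d. A probe counted as above background when its signal exceeded the median of 153 negative-control spots by more than 2.6 robust SDs in that channel, and it was kept when this held in a channel on at least 2 arrays. In all, 5 of the 10 probes passed, each in both channels on all 8 arrays. The other 5, which are the single probes of Cdkn1c, Cdkn2a and Cdkn2b and a pair of the 3 Cdkn1b probes, were not above background in either channel on any array.

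**Figure D1:**
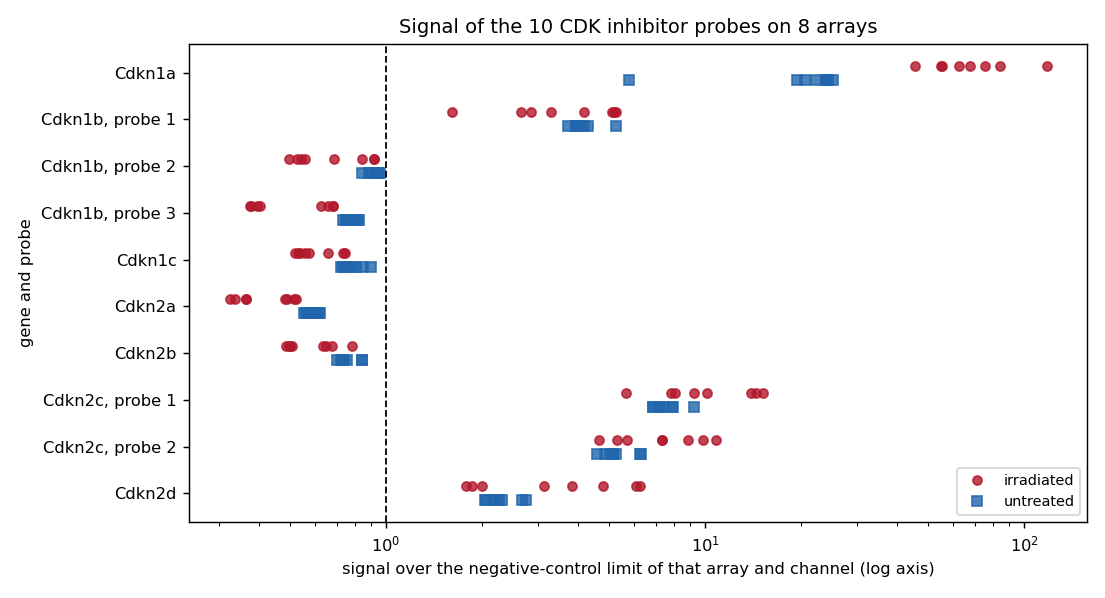
Mean signal of each of the 10 CDK inhibitor probes divided by the negative-control limit of the same array and channel (log axis), with 8 irradiated (circles) and 8 untreated (squares) values per probe and the limit drawn at 1. The probes of Cdkn1c, Cdkn2a and Cdkn2b and Cdkn1b probes 2 and 3 lie left of the limit throughout, and Cdkn1a reaches 118 times the limit in the irradiated channel.

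Cdkn2a, which encodes p16 and, from another reading frame, the Mdm2 inhibitor ARF, had the lowest signals. They ran from 85.8 to 215 units in the irradiated channel and from 194 to 250 in the untreated channel, at most 0.52 and 0.62 times the limit. Cdkn2b measured 143 to 290 units in irradiated and 251 to 317 in untreated cells, at most 0.78 and 0.84 times the limit. Cdkn1c measured 132 to 310 units in irradiated and 251 to 330 in untreated cells, at most 0.74 and 0.90 times the limit. No fold change is given for these 3 genes, since both channels were below background under every regimen. The 2 dim Cdkn1b probes, 1 of them printed as 10 spots, measured 93.0 to 411 units in irradiated and 259 to 417 in untreated cells, at most 0.92 and 0.96 times the limit. Cdkn2a was read by 10 spots per array, so its low signal does not rest on a single spot, but all 10 carry the same probe. The Cdkn1b probe printed as 10 spots was likewise below the limit, while another probe of that gene was above it. A low signal of 1 probe therefore does not show that the gene is silent.

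Cdkn1a, the p21 gene, was higher in irradiated than in untreated cells on all 8 arrays, as were 31.4%, 27% and 35.5% of genes on every array of 2Gy, 10Gy and 5x2Gy. Its probe, printed as 10 spots per array, had irradiated signals of 23325, 18924 and 24663 against untreated signals of 7609, 7714 and 8736 on the 2Gy arrays. On the 10Gy arrays the irradiated signals were 44815 and 22772 against untreated signals of 1999 and 9883. On the 5x2Gy arrays they were 18773, 15518 and 15939 against 8945, 8916 and 8411. After normalization within each array the log2 ratios were 1.21, 0.55 and 0.89 after 2Gy, 3.73 and 1.47 after 10Gy, and 1.35, 1.15 and 1.30 after 5x2Gy. The RNA came from whole cultures, so that more transcript per cell and more cells with the transcript cannot be told apart here. In all, 7 arrays lay between 0.55 and 1.47, and 10Gy replicate 1 stood apart at 3.73.

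**Figure D2:**
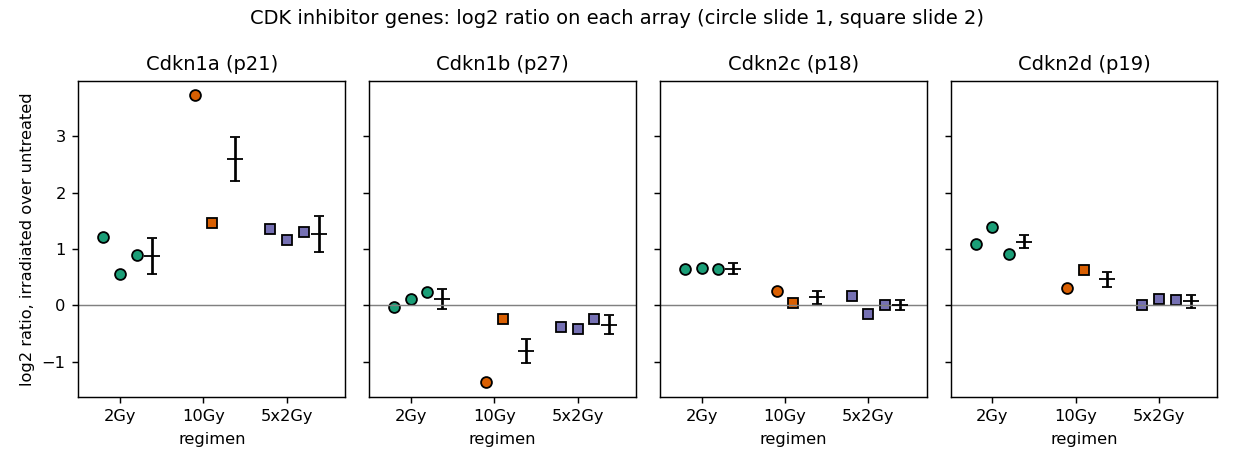
Log2 ratio of irradiated over untreated signal for the 4 measurable CDK inhibitor genes on each array, with circles for slide 1, squares for slide 2 and, to the right of each group, the fitted mean with its SE from the model over all 8 arrays. Cdkn1a is above 0 on every array, Cdkn2c and Cdkn2d are highest on the 2Gy arrays, and Cdkn1b is lowest on 10Gy replicate 1.

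That array differed from the others in its untreated channel. With channels scaled between arrays, untreated Cdkn1a stood at a log2 level of 11.14 on 10Gy replicate 1, against 12.91 to 13.23 on the other 7 arrays, 1.77 log2 units below the lowest of them. Irradiated Cdkn1a stood at 14.87 on it, against 13.78 to 14.46 elsewhere, 0.41 above the highest. Set against the mean untreated level of the other 7 arrays (13.09), irradiated Cdkn1a on 10Gy replicate 1 was 1.78 log2 units higher, compared with the 3.73 of its own array. Of all 13411 genes tested, 38 (0.283%) had an untreated level at least 1 log2 unit below every other array there, against 0 to 2 genes on each of the other arrays. Among the 38 were the p53 target Phlda3 and 10 ribosomal protein genes, and 26 of the 38 lay in the brightest 10% of genes on the other arrays; Phlda3 and these groups were picked out after their values were seen. The untreated levels of the other 3 measurable CDK inhibitors on that array lay inside or above the range of the other 7 arrays. All 10 Cdkn1a spots carried a quality flag on 10Gy replicate 1 and 9 did on 10Gy replicate 2, against 1 to 7 on the remaining arrays, and the meaning of the flags is not given in the sources used here. The 10 spots of 10Gy replicate 1 ranged from 3.33 to 4.03, so they did not overlap the spots of any other array, the highest of which was 2.09.

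**Figure D3:**
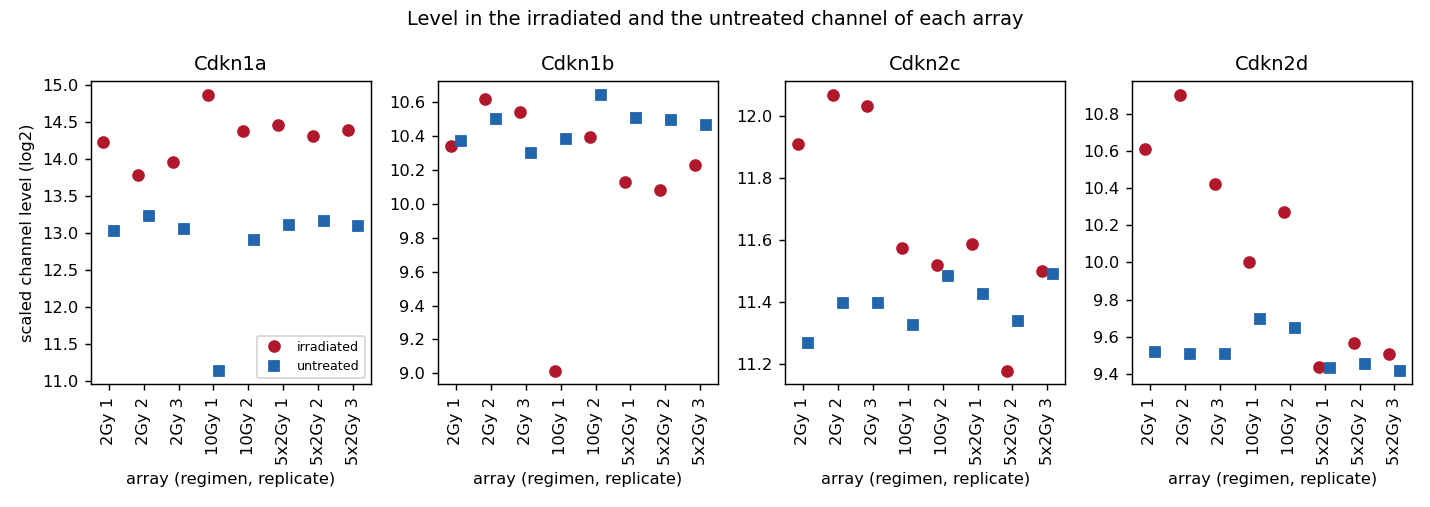
Scaled log2 level in the irradiated (circles) and untreated (squares) channel of each array for the 4 measurable genes, each panel with its own vertical axis. The untreated Cdkn1a level of 10Gy replicate 1 lies at 11.14, below the 12.91 to 13.23 of the other arrays, whereas the irradiated Cdkn1b level of that array, at 9.02, is the low one in its panel.

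In a limma model fitted to all 8 arrays over 13411 genes with Benjamini-Hochberg adjustment, Cdkn1a rose after 10Gy and after 5x2Gy. The 10Gy value was 2.598 ± 0.39 log2 units (SE, n = 2), 6.05-fold, with a limma adjusted p of 0.00166. After 5x2Gy it was 1.27 ± 0.32 (n = 3), 2.41-fold, with a limma adjusted p of 0.0122. The 2Gy value of 0.88 ± 0.32 (n = 3), 1.84-fold, missed the threshold of 0.05 with a limma adjusted p of 0.0879. The residual SD of Cdkn1a was 0.75, exceeded by 0.41% of genes, and it enters all 3 tests. With either 10Gy array left out, the 2Gy and 5x2Gy values of Cdkn1a did not move, and it passed after 2Gy. Its 10Gy value was 1.47 without 10Gy replicate 1 and 3.73 without 10Gy replicate 2. Here and below, a fit with 1 10Gy array takes its residual spread from the 2Gy and 5x2Gy arrays only. The difference between the 2 10Gy arrays does not enter such a test. With any of the 3 5x2Gy arrays left out, the 5x2Gy value was 1.23 to 1.33 with adjusted p between 0.0555 and 0.0698.

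Windows upstream of 6 of the 7 genes were found in the RefSeq promoter table (GRCm38.p6), and those of Cdkn1a are shown because the gene has a pair of annotated starts that differ in the motifs they hold. The windows cover the 250 bases before a start, 5′ to 3′ on the plus strand, at chr17:29090729-29090978 for the upstream start and chr17:29093519-29093768 for the downstream start. Capitals mark a p53 full site (2 adjoining half-sites of 10 bases with at most 1 mismatch in all, a pattern that reads alike on both strands) or a GC box (GGGCGG on either strand).
Cdkn1a upstream start: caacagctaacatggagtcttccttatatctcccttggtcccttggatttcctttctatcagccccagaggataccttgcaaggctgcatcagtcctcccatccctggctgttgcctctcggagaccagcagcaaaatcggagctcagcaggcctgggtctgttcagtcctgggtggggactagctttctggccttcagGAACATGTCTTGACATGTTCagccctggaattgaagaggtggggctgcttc
Cdkn1a downstream start: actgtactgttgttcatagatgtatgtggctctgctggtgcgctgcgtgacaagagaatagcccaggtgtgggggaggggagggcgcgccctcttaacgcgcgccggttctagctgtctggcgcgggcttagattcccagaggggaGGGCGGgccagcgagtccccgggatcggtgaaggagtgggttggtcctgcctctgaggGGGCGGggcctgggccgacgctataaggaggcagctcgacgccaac
The upstream window held a p53 full site with 1 mismatch at positions -51 to -32 from the start, a match that 25 of 32817 windows (0.0762%) in the table held, this one included. No other window of a CDK inhibitor gene held one. The downstream window held 2 GC boxes, a motif found in 32.7% of all windows. These are matches of letters, and no binding was measured.

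Of the genes set beside Cdkn1a for their tie to p53, Ccng1, the cyclin G1 gene and a p53 target, rose under all 3 regimens, by 1.12 ± 0.16, 2.00 ± 0.19 and 1.64 ± 0.16 log2 units after 2Gy, 10Gy and 5x2Gy (limma adjusted p = 0.00282, 0.000363 and 0.000188). Mdm2, whose protein marks p53 for degradation, rose after 10Gy (2.14 ± 0.29, limma adjusted p = 0.000985) and 5x2Gy (0.67 ± 0.24, adjusted p = 0.0443). After 2Gy its value was 0.48 ± 0.24 with a limma adjusted p of 0.181. Mdm2 also had its highest ratio on 10Gy replicate 1 (2.90), but its untreated level of 10.71 there lay within the 10.69 to 10.93 of the other arrays. Ccng1 went the other way, with 1.55 on 10Gy replicate 1 and 2.44 on 10Gy replicate 2. Trp53 itself rose after 5x2Gy (0.61 ± 0.11, limma adjusted p = 0.00218), with 0.11 after 2Gy and -0.03 after 10Gy.

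The 5 genes whose 8 log2 ratios were most like those of Cdkn1a were Sesn2, Cryab, Bglap, Hoatz and Tob1, with Pearson's r from 0.990 to 0.994 over 8 arrays. Sesn2 encodes a sestrin induced by stress and Tob1 an antiproliferative protein. The 5 most opposed were Ccng2, Kif11, Mblac2, Cyrib and Cdyl2, with r from -0.990 to -0.994; Ccng2 encodes cyclin G2 and Kif11 a spindle motor. These correlations are descriptions over arrays that share 1 far point, and without 10Gy replicate 1 they were 0.887 to 0.942 and -0.889 to -0.953 over 7 arrays.

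Cdkn1b, the p27 gene, was lower in irradiated than in untreated cells on the 10Gy and 5x2Gy arrays. Its 1 measurable probe gave irradiated signals of 1420, 2162 and 2355 against untreated signals of 1458, 1411 and 1674 on the 2Gy arrays. On the 10Gy arrays it gave 612 and 1262 irradiated against 1448 and 2144 untreated, and on the 5x2Gy arrays 854, 747 and 780 against 1533, 1461 and 1375. The log2 ratios were -0.03, 0.12 and 0.24 after 2Gy, -1.37 and -0.25 after 10Gy, and -0.38, -0.41 and -0.23 after 5x2Gy. They were below 0 on all 5 arrays of the 10Gy and 5x2Gy regimens and on either side of 0 after 2Gy. The share of all genes below 0 on every array was 33.5% for 10Gy and 40% for 5x2Gy. Cdkn1b fell by 0.81 ± 0.21 log2 units after 10Gy (n = 2, limma adjusted p = 0.0197), a 1.75-fold fall. Without 10Gy replicate 1 the value was -0.25 and did not pass (limma adjusted p = 0.171), and without 10Gy replicate 2 it was -1.37. The 5x2Gy value was -0.34 ± 0.17 (adjusted p = 0.138) and the 2Gy value 0.11 ± 0.17 (adjusted p = 0.692). With either 10Gy array left out the unchanged 5x2Gy value of Cdkn1b passed (limma adjusted p = 0.00314). The same 10Gy replicate 1 set both the high ratio of Cdkn1a and the low ratio of Cdkn1b, but in Cdkn1b the irradiated channel was low (9.02, against 10.08 to 10.62 elsewhere) and the untreated level of 10.39 lay within 10.30 to 10.64.

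The window before the Cdkn1b start, chr6:134920151-134920400 on the plus strand, is shown for contrast with Cdkn1a.
Cdkn1b: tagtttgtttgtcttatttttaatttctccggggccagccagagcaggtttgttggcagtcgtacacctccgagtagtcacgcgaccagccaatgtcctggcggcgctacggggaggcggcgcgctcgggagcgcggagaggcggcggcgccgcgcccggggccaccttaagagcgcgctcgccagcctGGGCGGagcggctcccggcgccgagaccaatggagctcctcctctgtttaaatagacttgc
It held 1 GC box, in capitals, and neither a p53 full site nor the E2F motifs searched on both strands (TTTGGCGC and TTTCCCGC, found in 0.417% and 0.893% of all windows).

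Both measurable INK4 genes were highest after the single dose of 2 Gy. Cdkn2d, the p19 gene, had irradiated signals of 1691, 2602 and 2137 against untreated signals of 853, 764 and 1016 on the 2Gy arrays. It had 1187 and 1153 irradiated against 927 and 1121 untreated on the 10Gy arrays, and 533, 523 and 472 against 778, 759 and 712 on the 5x2Gy arrays. Its log2 ratios were 1.09, 1.39 and 0.91 after 2Gy, 0.30 and 0.62 after 10Gy, and 0.01, 0.11 and 0.09 after 5x2Gy. The 3 regimens did not overlap: every 2Gy array lay above both 10Gy arrays, which lay above every 5x2Gy array. Of all genes, 32.2% did not overlap between 10Gy and 2Gy, 47% between 5x2Gy and 2Gy and 30% between 5x2Gy and 10Gy. The share with all 3 regimens apart was not counted.

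Cdkn2d rose after 2Gy by 1.13 ± 0.11 log2 units (SE, n = 3), 2.19-fold, with a limma adjusted p of 0.000946. Only 0.336% of genes had a larger absolute change after 2Gy. After 10Gy it rose by 0.46 ± 0.14 (n = 2, limma adjusted p = 0.0315), 1.38-fold. After 5x2Gy its value was 0.07 ± 0.11 (limma adjusted p = 0.645). Its 2Gy value passed with each of the 8 arrays left out in turn (1.00 to 1.24, adjusted p at most 0.0155) but not with the slide as a random block (1.24, adjusted p = 0.0606). The 10Gy call was lost without 10Gy replicate 2 (0.30, adjusted p = 0.141), without 2Gy replicate 1 (0.46, 0.0504) and without each 5x2Gy array (0.46, 0.0521 to 0.0577). It was also lost with the slide as a random block (0.46, adjusted p = 0.19).

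Cdkn2c, the p18 gene, was read by a pair of probes that were both above background. The brighter, which stands for the gene, had irradiated signals of 4226, 5813 and 6478 against untreated signals of 2539, 2482 and 3268 on the 2Gy arrays. On the 10Gy arrays the signals were 3851 and 2782 irradiated against 2568 and 3769 untreated, and on the 5x2Gy arrays 2334, 1592 and 1900 against 2808, 2548 and 2734. The log2 ratios were 0.64, 0.67 and 0.64 after 2Gy, 0.25 and 0.04 after 10Gy, and 0.16, -0.16 and 0.01 after 5x2Gy. All 2Gy arrays lay above all others, and the 10Gy and 5x2Gy arrays overlapped. The 2Gy arrays did not overlap those of 10Gy for 32.2% of all genes, nor those of 5x2Gy for 47%.

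Cdkn2c rose after 2Gy by 0.65 ± 0.09 log2 units (SE, n = 3), 1.57-fold, with a limma adjusted p of 0.00312. Its values were 0.14 ± 0.12 after 10Gy and 0.00 ± 0.09 after 5x2Gy (limma adjusted p = 0.384 and 0.984). The second Cdkn2c probe gave 0.61 ± 0.10 after 2Gy (limma adjusted p = 0.00431 over 21685 probes), 0.19 ± 0.12 after 10Gy and 0.19 ± 0.10 after 5x2Gy. The 2Gy call held with each array left out in turn (adjusted p at most 0.039) and was lost with the slide as a random block (0.58, adjusted p = 0.241).

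The windows before the Cdkn2d start (chr9:21291210-21291459, minus strand) and the upstream Cdkn2c start (chr4:109666757-109667006, minus strand) are shown, 5′ to 3′ along the gene, because these genes moved together after 2Gy.
Cdkn2d: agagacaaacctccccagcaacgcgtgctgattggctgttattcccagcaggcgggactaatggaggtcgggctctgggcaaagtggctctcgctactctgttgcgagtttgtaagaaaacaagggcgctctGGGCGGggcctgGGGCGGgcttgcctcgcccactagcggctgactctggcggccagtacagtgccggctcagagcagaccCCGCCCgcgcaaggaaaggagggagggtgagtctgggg
Cdkn2c: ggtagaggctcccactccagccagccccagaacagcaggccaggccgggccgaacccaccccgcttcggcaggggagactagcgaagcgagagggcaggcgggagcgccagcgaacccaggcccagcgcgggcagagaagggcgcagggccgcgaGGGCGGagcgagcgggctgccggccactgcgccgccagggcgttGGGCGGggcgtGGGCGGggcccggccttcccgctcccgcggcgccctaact
Each held 3 GC boxes, in capitals, in one or the other orientation, and none of the other motifs searched. A GC box was found in 32.7% of all windows, and windows of Cdkn1a, Cdkn1b and Cdkn2a also held at least 1. A tie between GC boxes and the rise after 2Gy was not tested. A second Cdkn2c window at chr4:109665373-109665622 held none of them.

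Read against all genes, 2 of the 4 measurable CDK inhibitors (Cdkn2c and Cdkn2d) passed after 2Gy, where 16.9% of the 13411 genes did (8.99% higher and 7.93% lower). After 10Gy 3 of 4 passed (Cdkn1a and Cdkn2d higher, Cdkn1b lower), where 28.2% of genes did (12.4% higher and 15.8% lower). After 5x2Gy 1 of 4 passed (Cdkn1a), where 41% of genes did (17.6% higher and 23.4% lower). Counts over 4 genes do not show a contrast between regimens, and the family as a whole was not tested. With only the arrays of a regimen in the fit, Cdkn1b passed after 5x2Gy (-0.34, limma adjusted p = 0.00479) but not after 10Gy (-0.81, limma adjusted p = 0.225).

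Between regimens, the question is whether dose or fractionation changed a gene's response, and the dye effect common to all arrays drops out. A dye effect that differs between the slides would not drop out. For 5x2Gy against 2Gy, 1 of the 4 genes passed, where 1.3% of all genes did: Cdkn2d was lower after 5x2Gy by a log2 difference of -1.06 ± 0.16 (limma adjusted p = 0.0365). It passed without either 10Gy array, but without any one of the 6 arrays compared the value lay between -1.17 and -0.93 and did not pass (limma adjusted p from 0.103 to 0.197). The 5x2Gy and 2Gy arrays lay on different slides, so that slide and regimen cannot be told apart except through the 10Gy arrays. With the slide as a fixed block, which rests on the difference between the 2 10Gy arrays, the Cdkn2d difference was -1.38. That difference between arrays does not enter the residual spread of the fixed-block fit. As a random block the Cdkn2d difference was -1.28 (limma adjusted p = 0.034). Cdkn2d was also the only measurable member to pass the F test for any difference among regimens (limma adjusted p = 0.044), as did 1.48% of all genes, while the other 3 had adjusted p from 0.062 to 0.137.

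Cdkn2c differed by -0.65 ± 0.13 between 5x2Gy and 2Gy, just missing the threshold (limma adjusted p = 0.0523), and it passed when every probe was a feature of its own (adjusted p = 0.0468), while its second probe gave -0.42 ± 0.14 (adjusted p = 0.103). Cdkn1b differed by -0.45 ± 0.24 (adjusted p = 0.271). Without either 10Gy array both values were unchanged and passed (limma adjusted p = 0.00361 for Cdkn2c and 0.0134 for Cdkn1b). Cdkn1a differed by 0.38 ± 0.46 between 5x2Gy and 2Gy (limma adjusted p = 0.618), with a 95% interval from -0.64 to 1.40. The arrays of 5x2Gy and 2Gy did not overlap for 3 of the 4 genes, Cdkn1b, Cdkn2c and Cdkn2d, as for 47% of all genes.

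For 10Gy against 2Gy, 0 of the 4 genes passed in limma, where 2.56% of all genes did, although all 4 had an unadjusted p between 0.00366 and 0.00759. The differences were 1.71 ± 0.51 for Cdkn1a, -0.92 ± 0.27 for Cdkn1b, -0.51 ± 0.15 for Cdkn2c and -0.67 ± 0.18 for Cdkn2d, with limma adjusted p of 0.105, 0.105, 0.103 and 0.0765. The 10Gy and 2Gy arrays did not overlap for any of the 4, as for 32.2% of all genes. Within slide 1, the single 10Gy array minus the mean of the 2Gy arrays gave 2.85 for Cdkn1a, -1.48 for Cdkn1b, -0.40 for Cdkn2c and -0.83 for Cdkn2d. With the slide as a fixed block, or without 10Gy replicate 2, the differences took these same within-slide values. They then rest on 1 10Gy array, and the spread between the 2 10Gy arrays does not enter their tests. Without 10Gy replicate 1 the Cdkn1a difference was 0.58, the Cdkn1b difference -0.36 and the Cdkn2c difference -0.62.

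For 5x2Gy against 10Gy, equal in total dose, 0 of 13411 genes (0%) passed in limma and 2241 had an unadjusted p under 0.05. The differences were -1.33 ± 0.51 for Cdkn1a, 0.47 ± 0.27 for Cdkn1b, -0.14 ± 0.15 for Cdkn2c and -0.39 ± 0.18 for Cdkn2d, with limma adjusted p from 0.256 to 0.62. The arrays did not overlap for Cdkn1a and Cdkn2d, as for 30% of all genes. Within slide 2, the 5x2Gy arrays minus 10Gy replicate 2 gave -0.20 for Cdkn1a, -0.09 for Cdkn1b, -0.03 for Cdkn2c and -0.55 for Cdkn2d. Without 10Gy replicate 2, on the other hand, Cdkn1a differed by -2.46 and Cdkn1b by 1.03, so the comparison turned on which of the 2 10Gy arrays was used.

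**Figure D4:**
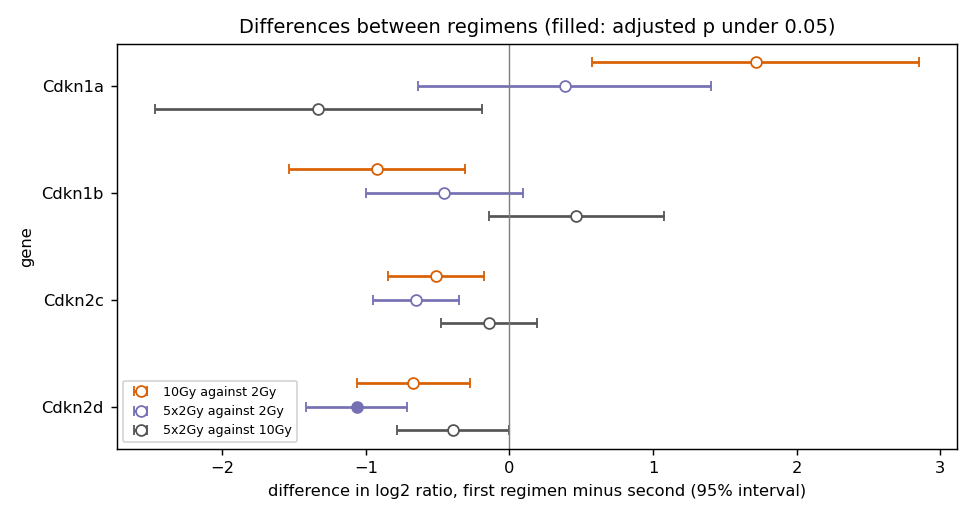
Difference in log2 ratio between regimens, first-named minus second, for the 4 measurable CDK inhibitor genes, with 95% intervals from the model over all 8 arrays and filled symbols at a limma adjusted p under 0.05. The Cdkn2d difference between 5x2Gy and 2Gy, at -1.06, is the 1 filled symbol, and the intervals of Cdkn1a are the widest.

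The genes that CDK inhibitors act on or depend on were described by 4 lists. Their counts stand beside the shares of all genes. Of these, 8.99% rose and 7.93% fell after 2Gy, 12.4% and 15.8% after 10Gy, and 17.6% and 23.4% after 5x2Gy. Of the CDKs and cyclins that the inhibitors bind, 12 of 13 were measurable, and 0 rose and 1 fell after 2Gy, 0 rose and 5 fell after 10Gy, and 2 rose and 3 fell after 5x2Gy. Their median log2 ratio was -0.12, -0.56 and -0.12, against -0.00, -0.06 and -0.02 over all genes. After 2Gy the 1 that fell was Ccne2, a partner of CDK2 at S-phase entry (-0.84 ± 0.20, limma adjusted p = 0.0198), which p21 and p27 inhibit. After 10Gy the S and G2 cyclin gene Ccna2 fell by 2.38 ± 0.29 log2 units and the mitotic cyclin gene Ccnb1 fell by 2.27 ± 0.42 (limma adjusted p = 0.000672 and 0.0042), with Cdk1 and Ccnb2 also lower. Without 10Gy replicate 1, Ccna2 stood at -1.69 and Ccnb1 at -1.05 after 10Gy, each on the 1 10Gy array left. After 5x2Gy Ccne2, Ccna2 and Cdk1 fell, to log2 ratios of -0.93, -0.95 and -0.63, and the G1 cyclin gene Ccnd3 rose by 0.36 (limma adjusted p at most 0.0238).

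Of the pocket proteins and E2F/DP factors, all 13 were measurable, and 1 rose and 2 fell after 2Gy, 1 rose and 6 fell after 10Gy, and 3 rose and 5 fell after 5x2Gy. Of all genes, 16.9%, 28.2% and 41% passed after 2Gy, 10Gy and 5x2Gy. The medians of the list were -0.12, -0.45 and -0.11. Rb1, the retinoblastoma gene, rose under all 3 regimens, by 0.84 ± 0.12, 1.18 ± 0.15 and 0.72 ± 0.12 log2 units after 2Gy, 10Gy and 5x2Gy (limma adjusted p = 0.00329, 0.000845 and 0.00209). The repressor gene E2f6 fell under all 3, with log2 ratios of -0.64, -1.0003 and -0.78, and so did E2f3, with -0.498, -0.92 and -0.68 (limma adjusted p at most 0.00958).

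Of 12 genes for the ubiquitin ligases that turn over p21 and p27, all were measurable, and 2 rose and 3 fell after 2Gy, 1 rose and 4 fell after 10Gy, and 3 rose and 5 fell after 5x2Gy. Of all genes, 16.9%, 28.2% and 41% passed after 2Gy, 10Gy and 5x2Gy. The medians of the list were -0.12, -0.19 and -0.24. Skp2, the subunit that recognises p27, fell under all 3 regimens, with log2 ratios of -0.56 ± 0.10, -0.81 ± 0.12 and -0.62 ± 0.10 (limma adjusted p = 0.00736, 0.00173 and 0.00169). Dtl, which brings p21 to the CUL4 ligase, also fell under all 3, with log2 ratios of -0.71 ± 0.15, -0.91 ± 0.19 and -0.79 ± 0.15 (limma adjusted p = 0.0147, 0.00687 and 0.00354). After 5x2Gy the scaffold genes Cul4a and Cul4b moved in opposite directions, at 0.85 ± 0.11 and -0.64 ± 0.12 (limma adjusted p = 0.000716 and 0.00264).

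Of the transcriptional regulators of CDK inhibitor genes, 22 of 23 were measurable, and 1 rose and 4 fell after 2Gy, 5 rose and 4 fell after 10Gy, and 5 rose and 7 fell after 5x2Gy. Of all genes, 16.9%, 28.2% and 41% passed after 2Gy, 10Gy and 5x2Gy. The medians of the list were -0.10, 0.01 and -0.07. Bmi1, a Polycomb repressor of Cdkn2a, fell under all 3 regimens, with log2 ratios of -0.54 ± 0.09, -1.43 ± 0.11 and -1.09 ± 0.09 (limma adjusted p = 0.00599, 0.000214 and 0.000153), while Cdkn2a stayed below background. Klf6, an activator of Cdkn1a, also fell under all 3, with -0.56, -0.82 and -0.68 (limma adjusted p at most 0.00389). Id1, an inhibitor of basic helix-loop-helix factors, rose under all 3, by 0.75 ± 0.16, 1.87 ± 0.19 and 1.11 ± 0.16 log2 units (limma adjusted p = 0.0129, 0.000424 and 0.00087). With either 10Gy array left out, the counts past the threshold after 2Gy were 6 of the CDKs and cyclins, 7 of the pocket proteins and E2F/DP factors, 8 of the ligase genes and 12 of the regulators, while 5390 of all genes (40.2%) passed, against 2270 (16.9%) with every array. With the slide as a random block 0 of each list and 21 of all genes passed after 2Gy. In the same order of lists 4, 5, 5 and 6 genes then passed after 10Gy, where 1464 of all genes (10.9%) did. After 5x2Gy 2, 3, 3 and 5 passed, where 817 of all genes (6.09%) did, against 5492 (41%) without the block.

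**Figure D5:**
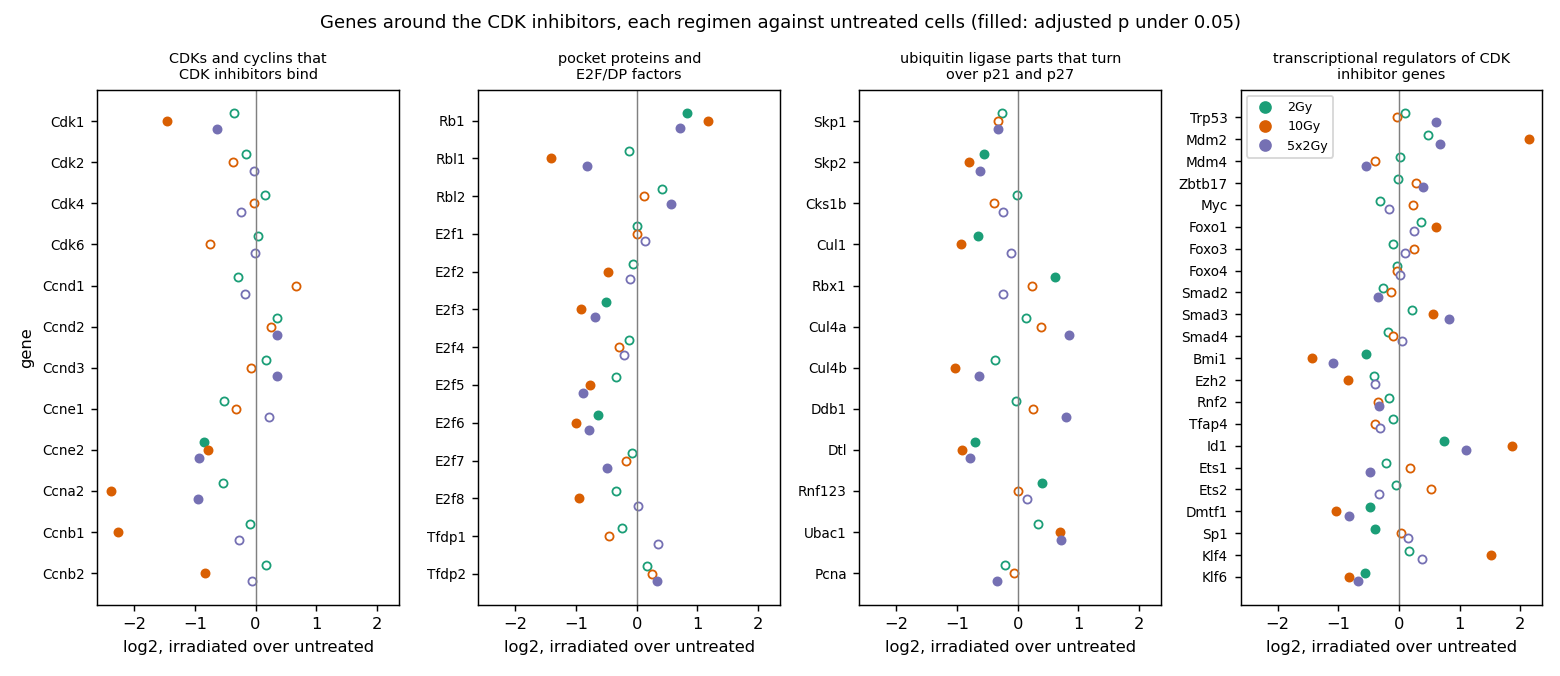
Log2 ratio of irradiated over untreated cells for the measurable genes of the 4 lists, with 1 point per regimen and filled points at a limma adjusted p under 0.05. Rb1 is higher, and Skp2, Bmi1 and Klf6 are lower, under all 3 regimens, and the largest falls are those of Ccna2 and Ccnb1 after 10Gy, at -2.38 and -2.27.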

How the data were processed

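Total RNA of irradiated (Cy5) and untreated (Cy3) LLC1 cells was co-hybridised on 2-colour arrays. The deposited scanner files hold mean and median spot intensity per channel without a background column, written by ImaGene 9.0 per the file headers. The authors' deposited series matrix holds log2 ratios; set against ratios of the mean signals without background correction they gave r from 0.9982 to 0.9998, irradiated over untreated. Mean signals were corrected with normexp (offset 50) and loess within arrays (control spots at weight 0) in limma 3.58.1 (R 4.3.3). Spots of a probe were averaged, and the brightest of the 21685 kept probes of a gene stood for it. Symbols came from RefSeq for 27191 probes and from the array for 7753. One model over all 8 arrays was fitted to 13411 genes, with Benjamini-Hochberg adjustment and a threshold of 0.05, and the fit was tested on simulated data. The simulated arrays were independent and had no slide effect, so they cannot show how a slide effect changes the calls. For channel levels, arrays were scaled with Aquantile. Array number, 2 or 3 per regimen, limits the precision. The members and lists were chosen with earlier results of these data known. Named list genes were at most 4 per list and comparison, by smallest p; the 5 most like and 5 most unlike Cdkn1a, and Trp53, Mdm2 and Ccng1, were named too. Alternatives covered background, signal, normalization, filters, probe choice, slide, replicate number, weights and each array left out. Leaving out flagged spots and taking the median of spots were chosen after seeing the data. Image names in the headers gave the slides. Deviations from the regimen means correlated from -0.243 to 0.114 between same-numbered arrays and from -0.114 to 0.243 between differently numbered ones. The deviations of the 2 10Gy arrays are mirror images, and so few arrays cannot decide on pairing. The replicate numbers were taken as names because the labels do not say that a number marks a shared culture.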

Additional observations from a re-analysis of the deposited data

Results flagged for a closer look

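The untreated level of Cdkn1a on 10Gy replicate 1 was far from the others: its gap to the nearest of the other 7 arrays made up 0.846 of the whole range, beyond the 95% critical value of Dixon's test, which chance alone exceeds in about 1 of 20 groups. The 5 measurable probes were examined in this way, and the other 4 had ratios of 0.175 to 0.393. The 10Gy value of Cdkn1a was 2.598 with this array and 1.47 without it, and the cause of the low untreated signal was not tested.

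Cdkn2d differed between the regimens, by -1.06 for 5x2Gy against 2Gy. Among the genes around the CDK inhibitors, differences between 10Gy and 2Gy passed for Ccna2 (-1.85), Ccnb2 (-0.998), Rbl1 (-1.29), Bmi1 (-0.892) and Id1 (1.12), with limma adjusted p from 0.0225 to 0.0486. Without 10Gy replicate 1 these were -1.16, -0.91, -0.79, -0.91 and 0.75, on the 1 10Gy array left, and the Id1 difference no longer passed. None of the 5 passed without any one of the 2Gy arrays (limma adjusted p from 0.071 to 0.172), without any one of the 5x2Gy arrays (0.0568 to 0.101), with the replicate number as a block (0.0862 to 0.108) or with only the arrays compared (0.183 to 0.21). The same held with scaling between arrays (0.0532 to 0.242) and with array weights (0.195 to 0.435). Of all 13411 genes tested, 0 passed between 10Gy and 2Gy without any one of the 2Gy arrays, and 4 to 5 passed without any one of the 5x2Gy arrays.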

How the results depend on the processing

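All values here are log2 differences. Of 624 recomputed values of the 4 measurable genes (26 alternatives, 6 comparisons), 541 kept their direction and side of the threshold, 29 no longer passed, 45 newly passed and 9 changed sign. Cdkn1a after 10Gy stayed above 0 in all 26 alternatives (1.34 to 3.73) and kept its side of the threshold in each. Where only 1 10Gy array entered, the difference between the 10Gy arrays was not in the residual spread. The 1.34 came with flagged spots left out. It rests on 1 spot of 10Gy replicate 2, as 0 spots of 10Gy replicate 1 were unflagged. For each change the cause was not tested, except where fewer arrays enter. A fixed slide block estimates the slide from the 2 10Gy arrays alone. Its 2Gy and 5x2Gy values therefore carry the difference between these arrays, which does not enter its residual spread. The count of measurable probes stayed at 5 with the 95th percentile of the negative controls as limit and with median pixel signals.

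Against untreated cells, Cdkn1a after 2Gy newly passed with median centring (1.33), scaling between arrays (1.13), array weights (0.87) and only the arrays compared (0.88). It changed sign with the slide as a fixed block (-0.25), where the slide term rests on the 2 10Gy arrays (3.73 and 1.47 for this gene). With flagged spots left out Cdkn1a after 2Gy also newly passed (0.88), but 10Gy replicate 1 dropped out for this gene, since all 10 spots there were flagged. After 5x2Gy it missed with scaling between arrays (1.08). Cdkn1b newly passed with the slide as a fixed block after 2Gy (0.67) and 5x2Gy (-0.90), with array weights (0.19 and -0.29) and, after 5x2Gy, with only the arrays compared (-0.34). After 10Gy it missed with the slide as a random block, array weights and only the arrays compared (-0.81 in each). Cdkn2c and Cdkn2d after 2Gy missed with the slide as a random block (0.58 and 1.24). Cdkn2d after 10Gy missed with median pixel signals (0.305), median centring (0.44), scaling (0.40), the slide as a random block, array weights and only the arrays compared (0.46 in each). Signs of values near 0 after 5x2Gy changed for Cdkn2c with scaling (-0.00035) and for Cdkn2d with the slide as a fixed (-0.089) or random (-0.041) block.

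Between 10Gy and 2Gy, Cdkn1a, Cdkn1b and Cdkn2d newly passed with the slide as a fixed block (2.85, -1.48 and -0.83) or random block (2.50, -1.31 and -0.78). Between 5x2Gy and 2Gy, Cdkn2c newly passed without background correction (-0.62), with median centring or scaling (-0.83 in each), series matrix values (-0.64), no filter, every probe as a feature or only the arrays compared (-0.65 in each) and array weights (-0.64). Cdkn1a newly passed with a fixed (2.649) or random (1.96) slide block and array weights (0.41) and changed sign with scaling (-0.058). Cdkn1b newly passed with a fixed (-1.57) or random (-1.23) slide block, array weights (-0.48) and only the arrays compared (-0.45). Between 5x2Gy and 10Gy, signs changed for Cdkn1b with the slide as a fixed block (-0.092) and for Cdkn2c with median pixel signals (0.0080).

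With the replicate number as a block, Cdkn2d no longer passed after 10Gy (0.41) or between 5x2Gy and 2Gy (-1.06), and no other call of the 4 genes changed; the numbers are not known to pair arrays.

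With each array left out in turn, the ranges against untreated cells were 0.72 to 1.05 for Cdkn1a after 2Gy, 1.23 to 1.33 for Cdkn1a after 5x2Gy, -1.37 to -0.25 for Cdkn1b after 10Gy, -0.40 to -0.31 for Cdkn1b after 5x2Gy, -0.077 to 0.085 for Cdkn2c after 5x2Gy and 0.30 to 0.62 for Cdkn2d after 10Gy. Between 10Gy and 2Gy they were 0.58 to 2.85 for Cdkn1a, -1.48 to -0.36 for Cdkn1b, -0.62 to -0.40 for Cdkn2c and -0.83 to -0.51 for Cdkn2d. Between 5x2Gy and 2Gy they were -0.52 to -0.39 for Cdkn1b, -0.73 to -0.57 for Cdkn2c and -1.17 to -0.93 for Cdkn2d. Between 5x2Gy and 10Gy they were -2.46 to -0.20 for Cdkn1a and -0.092 to 1.03 for Cdkn1b.

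Counts over all genes moved further. Those without 1 of the 10Gy arrays, or with a fixed slide block, leave the difference between these arrays out of the residual spread. After 2Gy 2270 genes passed, against 21 with the slide as a random block and 7281 with array weights. After 10Gy 3785 passed, against 222 with array weights and 6524 with a fixed slide block, and after 5x2Gy 5492 against 817 with a random slide block and 9076 over probes. Between 10Gy and 2Gy 343 passed, against 0 with only the arrays compared and 4302 without 10Gy replicate 2. Between 5x2Gy and 2Gy 175 passed, against 0 with the replicate number as a block and 6016 with array weights, and between 5x2Gy and 10Gy 0 passed, against 5788 without 10Gy replicate 2. Over the alternatives, calls after 2Gy were 0 to 10 for the CDKs and cyclins, 0 to 7 for the pocket proteins and E2F/DP factors, 0 to 10 for the ligase genes and 0 to 12 for the regulators. Signal over background limits Cdkn1b on 10Gy replicate 1, at 1.61 times the limit in irradiated cells, and Cdkn2d, at 1.78 to 6.25 times in irradiated and 2.04 to 2.75 times in untreated cells.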
